A study of Mus musculus with 4 samples.

Results

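In 108 stretches of the mouse genome, each 1 Mb long, the liver carried at least as many called binding sites of the estrogen receptor alpha (ESR1) as the uterus, against the general excess of uterus sites. They are called liver-tilted windows here. Each autosome was cut into 1 Mb windows from position 0, the summits of the peaks in the liver and the uterus list were counted per window, and a window was kept if it held 5 or more liver summits and at least as many liver as uterus summits. All peaks of both lists in these windows are members, so the members were selected on the number of called summits per window in both lists. They were 1102 of the 6932 liver peaks and 826 of the 24836 uterus peaks, or 1928 of 31768 peaks in all. Peak counts of both tissues chose the windows, so the counts, densities and the tilt itself are given as a description and without a test.

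The study mapped ESR1 by chromatin immunoprecipitation followed by sequencing (ChIP-seq). The groups used are the ESR1 library of the liver and the ESR1 library of the uterus, each from female C57BL/6 mice aged 8 weeks, with no genetic change or treatment named in the labels. Each of the 4 samples started from 100 mg of frozen tissue fixed in 1% formaldehyde, and the input control of each tissue entered through the authors' peak calling only. With 1 library per tissue there is no spread between animals to set a difference against, and the labels do not say whether a library pools several animals. The libraries came from bulk tissue, so a site bound in fewer cells and a site bound less often per cell cannot be told apart. The lists hold no expression values, and the tissue labels were not checked against marker genes.

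ESR1 is a nuclear receptor that is activated by estrogens and binds DNA at estrogen response elements or through other factors already on chromatin. Its binding sites differ widely between cell types, and many of them are enhancers that lie far from the genes they act on. In the uterus it drives growth of the tissue in each estrous cycle, and in the liver it takes part in the control of lipid and glucose metabolism. Enhancers of a tissue tend to lie in groups around genes that the tissue uses strongly.

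The liver-tilted windows were a small and dispersed part of the genome. They made up 4.94% of the 2187 autosomal windows with a summit of either list, and 108 of the 568 windows with 5 or more liver summits. In 91.0% of all windows the uterus had more summits. The liver-tilted windows held 16.0% of the autosomal liver peaks but 3.37% of the autosomal uterus peaks. Chromosome X was outside the rule.

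A liver-tilted window held 5 to 24 liver summits, with a median of 9, and 1 to 21 uterus summits, with a median of 7. In the other autosomal windows the medians were 1 liver and 10 uterus summits. The windows were thus dense in liver sites and also held uterus sites, and none of the 108 lacked a uterus summit. Liver summits made up 57.2% of all summits in the liver-tilted windows and 19.6% in the other windows. The tilt was strong in few windows. The liver count was at least 2 times the uterus count in 20 of the 108 windows, and the counts were equal in another 20.

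**Figure D1:**
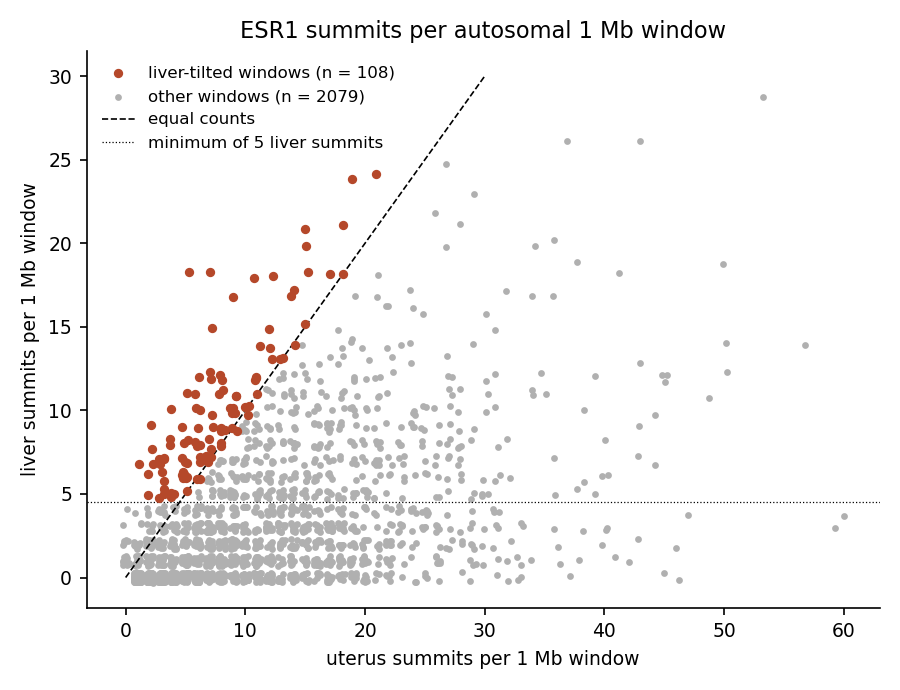
Liver summits (vertical axis) against uterus summits (horizontal axis) in each of the 2187 autosomal 1 Mb windows, with a small random offset so that points do not hide each other. The 108 liver-tilted windows lie on or above the dashed line of equal counts and at or above 5 liver summits, while most windows lie below the line.

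The rule's edges had windows close by on both sides. Just inside the tilt limit, 20 windows with equal counts held 193 peaks of each list, with a median fold enrichment (the authors' ratio of signal to local control) of 11.35 in liver and 11.51 in uterus. Just outside, 26 windows with 1 liver summit fewer than uterus summits held 222 liver and 248 uterus peaks, with medians of 11.2 and 13.725. Inside this limit 10.4% of the peaks of each list overlapped a peak of the other list. Outside it 17.6% of liver and 15.7% of uterus peaks did. At the count limit, 8 windows with exactly 5 liver summits held 40 liver and 28 uterus peaks, and 15 windows with 4 held 60 and 40. The medians there were 11.34 in liver and 12.54 in uterus inside the limit, and 10.61 and 14.285 outside it. The overlapping shares there were 17.5% in liver and 25% in uterus inside, and 13.3% and 17.5% outside.

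The windows were found on every autosome. Chromosome 7 had the most, with 12, followed by chromosome 5 with 10 and chromosome 17 with 8. Of the liver peaks of a chromosome, the share in liver-tilted windows was 31.4% on chromosome 17, 29.6% on chromosome 19, 27.3% on chromosome 15 and 26.4% on chromosome 7. It was lowest on chromosome 16, at 6.36%, chromosome 12, at 7.17%, and chromosome 1, at 7.55%. Chromosome 11, which had 49 windows with 5 or more liver summits, the most of any autosome, had only 4 liver-tilted windows. The share of a chromosome's uterus peaks in the windows ran from 1.38% on chromosome 1 to 8.19% on chromosome 19.

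**Figure D2:**
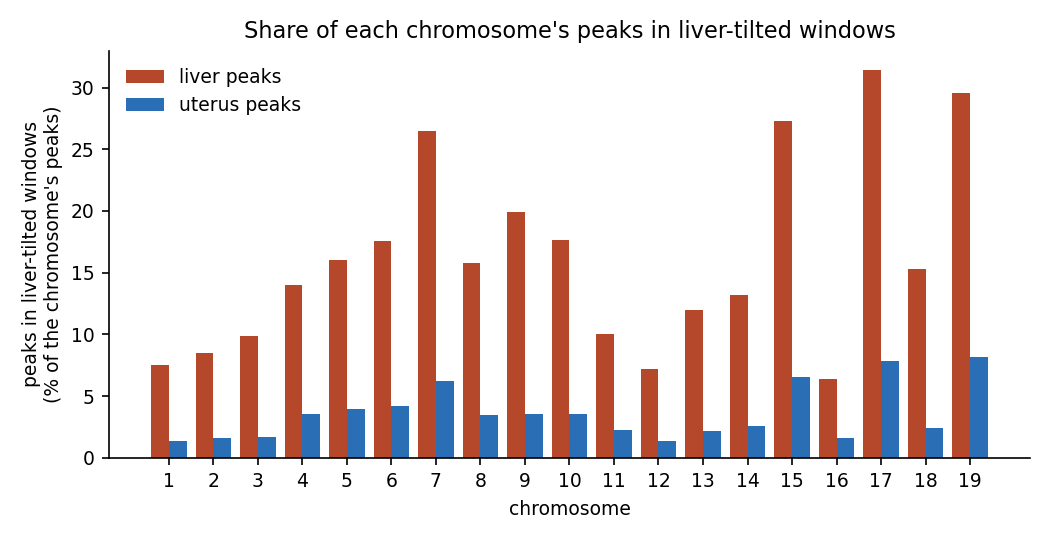
Peaks in liver-tilted windows as a percent of all peaks of each autosome, for the liver list (left bars) and the uterus list (right bars). Chromosomes 7, 15, 17 and 19 stand highest in both lists, with 26.4% to 31.4% of their liver peaks in the windows.

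Most liver-tilted windows stood alone. Of the 108 windows, 20 formed 10 pairs of neighbours, no run was longer than 2 windows, and 88 had no neighbour of their kind. The pair with the most liver summits lay on chromosome 15 from 81 to 83 Mb, with 36 liver and 17 uterus summits. Others with over 25 liver summits lay on chromosome 10 from 127 to 129 Mb (31 liver, 24 uterus), chromosome 19 from 3 to 5 Mb (30 liver, 18 uterus), chromosome 17 from 56 to 58 Mb (27 liver, 17 uterus) and chromosome 17 from 31 to 33 Mb (26 liver, 18 uterus).

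The flanks did not share the tilt. In the liver-tilted windows the mean was 10.2 liver and 7.65 uterus summits per window. In the windows directly before and after them it was 4.72 and 5.46 liver summits, against a mean of 3.15 over all windows. Uterus summits in the same flanks averaged 12.4 and 13.03, against 11.2 over all windows. The windows were therefore poorer in uterus sites than their own surroundings, which were themselves above the genome's mean in both tissues. The rule selected for high liver and low uterus counts, so some return towards the mean outside the windows is built in. Without the 10 flanks on each side that were themselves liver-tilted, the liver means were 3.76 and 4.86. At a distance of 10 Mb the liver means were 3.38 and 3.94.

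The 10 windows described next have the most liver summits, from 24 down to 18. Of 7 windows tied at 18, the 5 with the larger margin of liver over uterus were taken, and the windows at 126 to 127 Mb of chromosome 8 (17 uterus summits, 5 shared liver peaks) and 85 to 86 Mb of chromosome 15 (18 uterus summits, 1 shared liver peak) were not. The 10 windows held 200 liver and 138 uterus peaks, and 36 of the liver peaks (18.0%) were shared, meaning that they overlapped a peak of the uterus list. Coordinates follow the authors' lists, which are on mm9. Tags are raw counts of reads per peak and fold enrichment is the authors' ratio over the local control; both are the authors' values for a single peak in 1 library and serve here to rank peaks within a list. They are not compared between the tissues. A leading or strongest peak of a window is that of highest fold enrichment in its list, which need not have the most tags.

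The window at 80 to 81 Mb of chromosome 10 held 24 liver and 19 uterus summits, and 6 of its liver peaks were shared. Its leading liver peak, at 80127172 to 80128174 (26.0-fold, 87 tags), lay on its leading uterus peak, at 80127172 to 80127788 (51.8-fold, 149 tags). No other uterus summit lay within 10 kb of the run of 4 liver summits to which this site belongs.

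The window at 127 to 128 Mb of the same chromosome held 24 liver and 21 uterus summits. Near the window's start, its leading uterus peaks at 127051200 to 127052539 (72.9-fold, 318 tags) and 127036945 to 127037950 (38.3-fold, 246 tags) had no liver partner. A run of 5 liver peaks lay farther on, between 127382377 and 127404012, with 13.05- to 19.9-fold enrichment and none of them shared. Elsewhere in the window 5 liver peaks were shared.

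At 21 to 22 Mb of chromosome 9 there were 21 liver and 15 uterus summits. The leading liver peak, at 21754674 to 21755331 (62.0-fold, 157 tags), was shared, and the uterus peak on it was 30.5-fold enriched with 79 tags. The leading uterus peak, at 21571823 to 21573553 (54.0-fold, 357 tags), was not. Of the 21 liver peaks, 5 were shared.

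At 100 to 101 Mb of chromosome 11 there were 21 liver and 18 uterus summits, of which 3 pairs overlapped. The liver member with the most tags lay here, at 100731372 to 100732666 (611 tags, 55.4-fold), with another strong peak at 100995383 to 100996577 (494 tags, 62.4-fold), and both were shared. On the first the uterus peak had 284 tags at 74.1-fold, and on the second 318 tags at 61.7-fold. The uterus peak of highest enrichment, at 100715363 to 100716042 (96.5-fold, 249 tags), had no liver partner, although a liver summit lay 5.02 kb away.

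The window at 56 to 57 Mb of chromosome 17 held 20 liver and 15 uterus summits, and the 3 peaks of highest enrichment in each list there were found in a single tissue, while 5 of its liver peaks were shared. The strongest liver peak reached 21.1-fold with only 32 tags, at 56615807 to 56616254. The strongest uterus peak, at 56918175 to 56919222, reached 65.6-fold with 231 tags.

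On chromosome 15 the windows at 82 to 83 Mb and 81 to 82 Mb each held 18 liver summits, with 5 and 12 uterus summits. The first had the widest margin of liver over uterus sites of the 108 windows, and a single shared site. In the second, a broad site at 81640406 to 81642436 carried 494 liver tags at 41.1-fold, or 33.4% of the tags in the window's liver peaks, and was shared with a uterus peak of 339 tags at 25.3-fold.

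The other 3 of the 10 windows also held 18 liver summits each. That at 3 to 4 Mb of chromosome 19 held 7 uterus summits. A run of 5 liver peaks there, between 3319462 and 3333795, had 8.47- to 16.2-fold enrichment and no uterus summit within 10 kb. The window at 148 to 149 Mb of chromosome 7 held 11 uterus summits, and its strongest liver peaks, at 148661956 to 148662986 (33.2-fold, 147 tags) and 148641436 to 148642279 (27.4-fold, 110 tags), were both shared. The window at 90 to 91 Mb of chromosome 6 held 15 uterus summits and 1 shared site, the leading liver peak at 90413043 to 90414100 (45.1-fold, 234 tags). That shared peak stood inside a run of 5 liver peaks only 4.66 kb long, and the other 4 were liver-only, at 9.74- to 14.9-fold.

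**Figure D3:**
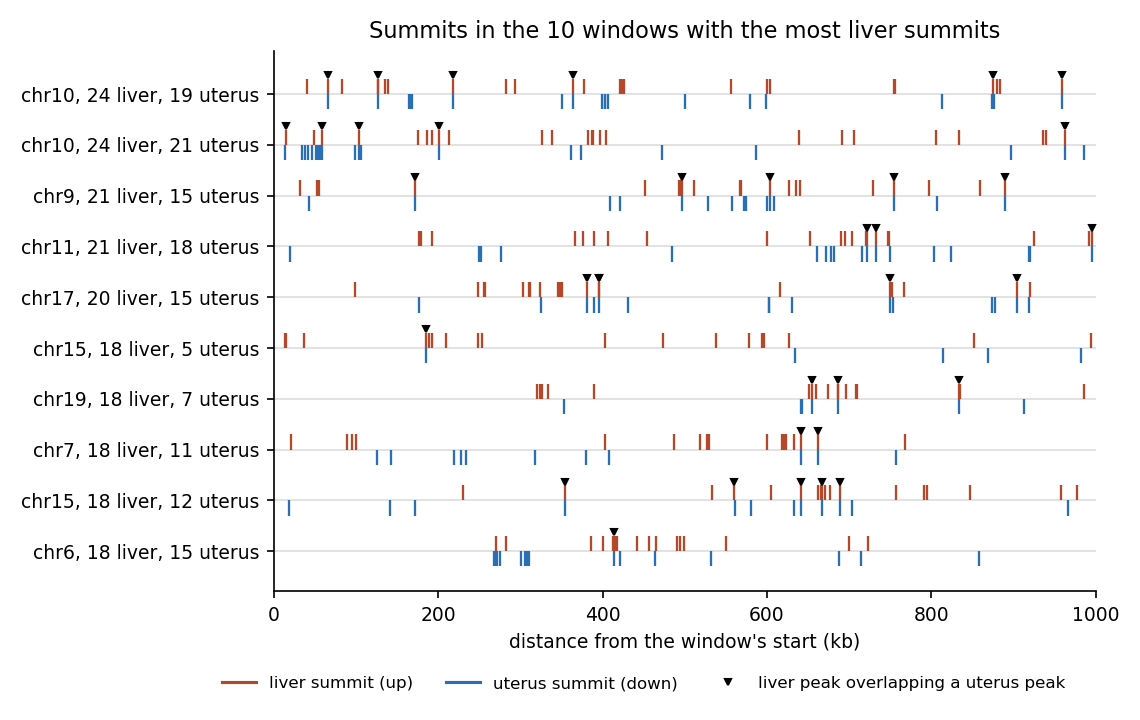
Summit positions in the 10 windows with the most liver summits (ties at 18 taken by the larger margin over uterus), as distance from the window's start in kb; liver summits point up, uterus summits point down, and triangles mark the 36 liver peaks that overlap a uterus peak. Groups of liver summits without uterus summits beside them are visible in most rows.

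Liver peaks in the liver-tilted windows had medians of strength close to those elsewhere. Their median fold enrichment was 11.04 (quartiles 8.81 and 14.7), against 11.17 (8.89 and 14.8) in the other autosomal windows. The 95% interval of the median from its order statistics, which covers the variation across peaks of 1 library, was 10.85 to 11.42 in the liver-tilted and 11.04 to 11.3 in the other windows. Median tags were 60 (57 to 62) and 58 (57 to 58). Median widths were 646 bp (635 to 656) and 629 bp (625 to 634), with intervals that did not overlap. The medians of fold enrichment and tags therefore did not set the windows apart, while liver peaks there were slightly wider. The share of liver peaks lying in the windows stayed between 13.9% and 18.0% across the 10 equal groups by fold enrichment, against 16.0% overall. Across 10 equal groups by tags it varied more, without a steady rise. It was lowest in the group of fewest tags, at 12.2% (9.94 to 14.8), and highest in group 8, at 19.0% (16.2 to 22.1). Of the 100 autosomal liver peaks of highest enrichment, 18 were members.

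Uterus peaks in the same windows were less enriched than uterus peaks elsewhere. Their median fold enrichment was 12.67 (interval 12.18 to 13.3), against 14.75 in the other windows, a difference of -2.08. Median tags were nearly equal, at 55.5 and 55, and so were median widths, at 593 and 580 bp. The windows held 6.16% of the uterus peaks in the lowest of 10 equal groups by fold enrichment and 2.61% of those in the highest, against 3.37% of all. The share was 4.61% in the second-lowest group and ran from 2.24% to 3.43% over the groups above it, without a steady fall. Of the 100 uterus peaks of highest enrichment, 2 were members. Against the 460 windows with 5 or more liver summits but more uterus summits, where the uterus median was 13.73, the difference was smaller, at -1.06. The uterus median was 11.51 in windows with equal counts and 13.695 where the liver count was above 1 and under 1.5 times uterus. It was 13.285 at 1.5 to under 2 times and 11.98 at 2 times or more. Outside the rule, at 0.5 to under 1 times and 5 or more liver summits, it was 13.46. Beside that value the median was not lower in every class. No test between tissues or between windows is given, since peaks of a library are not replicates.

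**Figure D4:**
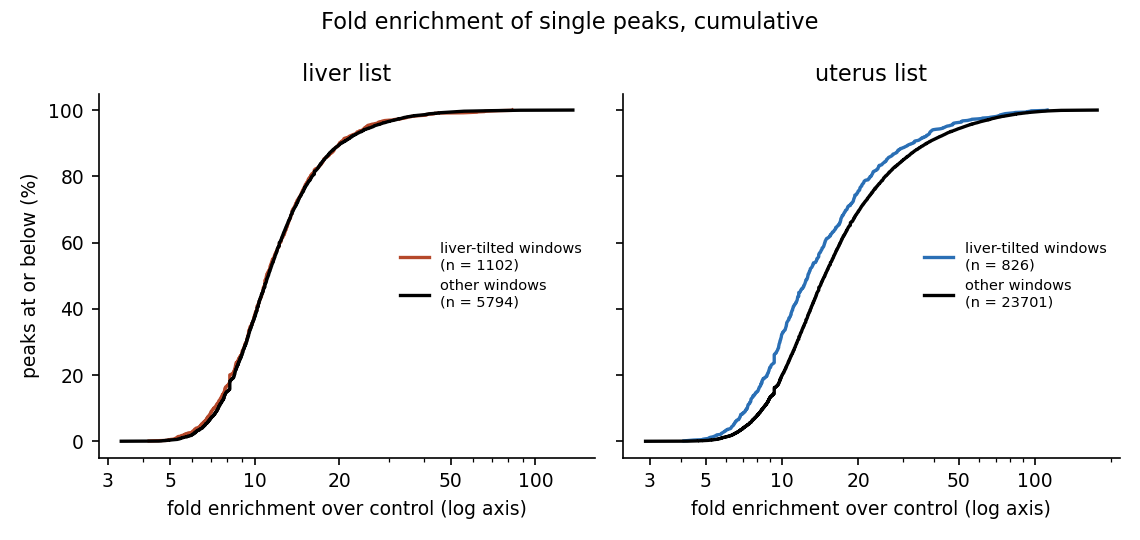
Cumulative share of peaks (vertical axis, percent) by fold enrichment over control (horizontal log axis) in liver-tilted and other autosomal windows. The curves of the liver list lie on each other, with medians of 11.04 and 11.17, while the uterus curve of the liver-tilted windows lies to the left, with medians of 12.67 and 14.75.

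Of the 8 liver members of highest fold enrichment, 7 overlapped a uterus peak, as did 71 of the 100 autosomal liver peaks of highest enrichment. Chromosome 7 carried the first 2, at 6362603 to 6363367 (82.8-fold, 346 tags) and at 6195767 to 6196825 (82.55-fold, 299 tags), which ranked 7 and 8 among all liver peaks. A peak on chromosome 19 at 4988938 to 4989505 followed, with 74.2-fold enrichment and 138 tags. The exception was a liver-only peak on chromosome 8 at 112496673 to 112497612 (69.8-fold, 330 tags), whose nearest uterus summit was 279.75 kb away. Of the 8 leading uterus members, 4 were shared, and of the 100 leading autosomal uterus peaks 9 were. The uterus-only ones lay on chromosomes 11, 9, 8 and 18, with 82.1- to 96.5-fold enrichment, and the nearest liver summit was 5.02 to 497 kb away.

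The 6 overlapping pairs that ranked best by fold enrichment in both lists together had summits 0 to 18 bp apart. Besides the pairs named on chromosomes 7 and 11, they included a site on chromosome 4 where the liver peak, at 41083251 to 41084281, had 284 tags at 66.2-fold and the uterus peak, at 41082369 to 41084291, had 468 tags at 109-fold. A site on chromosome 19 had a liver peak at 46119423 to 46120180 with 156 tags at 65.95-fold, and a uterus peak at 46119158 to 46120813 with 413 tags at 76.2-fold. The pair on chromosome 15, with its liver peak at 88705789 to 88706631, had 160 tags at 24.5-fold in liver and 568 tags at 92.9-fold in uterus.

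Liver peaks in the liver-tilted windows were shared less often than liver peaks elsewhere. Of 1102, 165 had 1 bp or more in common with a uterus peak, or 15.0% (Wilson interval 12.99 to 17.2), against 25.4% (24.3 to 26.6) in the other windows and 23.8% of all autosomal liver peaks. The share in the 460 liver-rich windows with more uterus summits was 24.7% (23.4 to 26.1). In 32 of the 108 windows no liver peak was shared, and no matching count is given for other windows. Intervals of shares cover counting error only. The rule favoured windows with few uterus peaks, and fewer uterus peaks leave fewer partners.

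The lower share was also present between windows with like numbers of uterus summits. In windows with 1 to 4 uterus summits, 10.1% (6.14 to 16.3) of liver peaks in liver-tilted windows were shared, against 22.6% (18.1 to 27.8) in other windows. With 5 to 7 uterus summits the shares were 12.1% (9.09 to 15.9) and 20.6% (16.9 to 25.0). With 8 to 10 they were 16.2% (11.9 to 21.7) and 23.5% (20.4 to 26.9), and with 11 to 21 they were 18.6% (15.1 to 22.8) and 24.3% (22.7 to 25.9). The intervals overlapped in the classes of 8 to 10 and of 11 to 21 uterus summits. Liver-tilted windows held more liver peaks at a given uterus count, by the rule, and the number of uterus peaks limits how many of them can have a partner. Over all 108 windows the uterus summits came to 75.0% of the liver summits.

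The same overlaps, taken as a share of the uterus list, gave a higher share than in other windows. Of the 826 uterus members, 163 overlapped a liver peak, or 19.7% (17.2 to 22.6), against 6.18% (5.88 to 6.49) in the other windows and 6.63% of all autosomal uterus peaks. In the liver-rich windows with more uterus summits it was 10.9% (10.3 to 11.6). At like numbers of liver summits the gap was narrower. In windows with 5 to 7 liver summits the share was 16.0% (11.1 to 22.3) in liver-tilted and 8.53% (7.67 to 9.47) in other windows. With 8 to 10 it was 15.1% (10.9 to 20.4) and 10.96% (9.80 to 12.2), with overlapping intervals, and with 11 to 24 it was 23.4% (19.7 to 27.6) and 14.1% (12.8 to 15.6). Liver density in the windows was set by the rule. A uterus site in these windows was therefore found among many liver sites, and most uterus sites there still had none on them, since 663 of 826 were uterus-only.

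Within the windows, sharing followed the tilt only in part. The shares of both lists count the same overlaps over different totals, so their ratio follows the count ratio that defines the classes. Where the liver count was at least 2 times the uterus count, 10.4% (6.79 to 15.7) of 182 liver peaks were shared and 26.8% (17.9 to 38.1) of 71 uterus peaks. At ratios from 1.5 to under 2 the shares were 16.6% and 27.3%, and at ratios above 1 and under 1.5 they were 17.6% and 20.8%. Windows with equal counts went against this order in liver, with 10.4% (6.81 to 15.5) of 193 peaks shared in each list. The classes held 17 to 51 windows, and their intervals overlapped in liver, by about 1 percentage point between the classes farthest apart.

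**Figure D5:**
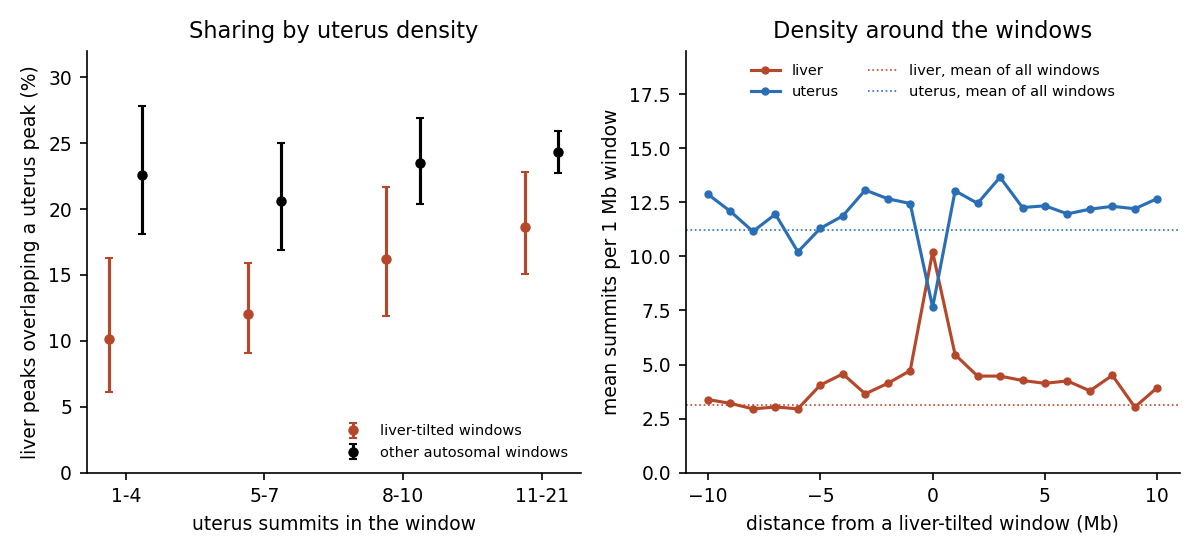
Left, percent of liver peaks that overlap a uterus peak in liver-tilted and other windows, by the number of uterus summits in the window, with 95% Wilson intervals; the liver-tilted windows lie lower in each of the 4 classes, at 10.1% to 18.6%. Right, mean liver and uterus summits per window at distances up to 10 Mb from a liver-tilted window, with the means of all windows as dotted lines; at 1 Mb the liver means are 4.72 and 5.46 and the uterus means 12.4 and 13.03.

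Where sites were shared, they coincided as closely as elsewhere. The 165 overlapping pairs in the windows had a median distance of 37 bp between the liver and the uterus summit (quartiles 11 and 124 bp), against 38 bp (14 and 135 bp) for the 1478 pairs in other windows. In 58.8% of the pairs (51.2 to 66.0) the summits were at most 50 bp apart, against 57.0% (54.5 to 59.5) in other windows and 57.2% of all autosomal pairs. Shared liver members had a median of 74 tags, and liver-only members 57 tags. The corresponding medians in the other windows were 67 and 55 tags.

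Inside the windows the liver sites lay in groups. A further liver summit lay within 10 kb of 52.1% (49.1 to 55.0) of the liver members, against 38.2% (36.9 to 39.4) in other windows and 40.4% of all autosomal liver peaks; a dense window raises this share by itself. In the liver-rich windows with more uterus summits the share was 47.2% (45.6 to 48.7). Those windows were less dense in liver summits, with a median of 8 and a mean of 8.48. In liver-tilted windows the median was 9 and the mean 10.2, so density was not matched. Uterus members showed the opposite, with 31.6% (28.5 to 34.8) having another uterus summit within 10 kb, against 48.3% (47.6 to 48.9) in other windows and 47.7% of all. The rule asked for few uterus peaks, so this too is a description.

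Distances between liver-only and uterus sites follow the uterus density, which the rule kept low, and are given as a description. A uterus summit lay within 10 kb of 21.1% (18.6 to 23.9) of the 937 liver-only members, against 29.3% (28.0 to 30.7) in other windows and 27.9% of all autosomal liver-only peaks. The median distance to the nearest uterus summit was 31.9 kb in the liver-tilted and 22.5 kb in the other windows. Of the uterus-only members, 21.7% (18.7 to 25.0) had a liver summit within 10 kb, against 7.63% (7.29 to 7.98) in other windows and 8.03% of all, and liver density was set by the rule.

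The liver summits formed 212 runs of 2 or more with gaps of at most 10 kb, which held 574 of the 1102, and 528 stood alone. Runs of 5 or more numbered 14, or 12.7 per 1000 liver peaks, against 26 runs in the other windows. All 26 lay in the liver-rich windows with more uterus summits, where the rate was 6.67 per 1000. A window outside the rule that holds such a run belongs to that class by definition. In 7 of the 14 there was no uterus summit within 10 kb of the run, as in 10 of the 26 elsewhere. The uterus list had 2.42 such runs per 1000 peaks in the liver-tilted windows and 12.7 in the others. These rates rise with the density of sites, which the rule used. The runs described next were chosen after their values were seen.

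The run with the most liver summits and no uterus summit within 10 kb lay on chromosome 7 between 20266490 and 20286715. It held 8 peaks within 19.6 kb between the outer summits, with 5.3- to 16.3-fold enrichment and 32 to 155 tags, and the nearest uterus summit was 52.7 kb from its last member. The peaks were of ordinary strength for the list, with a median of 10.38-fold, so the run stood out by number and not by height.

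On chromosome 9 the window at 46 to 47 Mb held a pair of such runs. The first had 5 peaks between 46023622 and 46044148, at 5.36- to 13.9-fold with 43 to 155 tags. The second had 7 peaks between 46064046 and 46081412, at 5.22- to 13.6-fold with 52 to 133 tags. None of these 12 peaks was shared, and each lay 133 kb or more from the nearest uterus summit. Their enrichments were mostly below the list's median of 11.2.

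Strong peaks led other runs. On chromosome 8 between 112496673 and 112524469, 7 liver-only peaks within 27.1 kb included the 69.8-fold site named above and another of 29.9-fold (147 tags), and the nearest uterus summit was 279.75 kb away or farther from each. On chromosome 4 between 133107911 and 133126505, 6 liver-only peaks had 14.4- to 35.0-fold enrichment, all above the list's median, and the first of them carried 377 tags. Uterus summits stayed 90.3 kb or more away.

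The run with the most summits of all was of another kind. On chromosome 15 between 88680644 and 88706631, 9 liver peaks lay within 25.0 kb, 4 of them were shared, and 7 uterus summits lay in or within 10 kb of the run. The shared peaks included both ends, at 29.0-fold with 208 tags and at 24.5-fold with 160 tags. Liver-only and shared sites were mixed along this run.

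The set of windows depended on where they began and on the length of the lists. With windows shifted by 0.5 Mb there were 105 in place of 108, but only 569 of the 1102 liver members and 309 of the 826 uterus members were among their peaks. With the uterus list cut to its 6932 peaks of highest score, 488 windows met the rule.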

How the data were processed

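The data were the peak lists of 1 liver and 1 uterus ESR1 ChIP-seq library of mouse. The authors called peaks with MACS 1.3.7.1 on mm9, per the submitters' processing notes, at a p cutoff of 1e-10, per the file headers, and the labels name no aligner. Unique tags numbered 20016495 in the liver library and 22298008 in the uterus library, and 18781348 and 22020520 in their controls. The lists as deposited give raw tag counts per peak, with no correction for depth, and fold enrichment as a ratio to the control's local background. They also give a MACS score, which per the file headers is -10*log10(p-value), and a deposited false discovery rate in percent. Among the members this rate was at most 0.66 in liver and 0 in uterus.

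Summits were taken as start plus summit minus 1, and window and overlap counts were checked on simulated lists with planted answers. Shares carry 95% Wilson intervals. Medians carry exact binomial intervals from order statistics. Peaks are not replicates, and no test over peaks was made. The members and measures were chosen with earlier results of these data known. Comparisons at like uterus or liver counts, by ratio class, in flanks and in runs were added after seeing the data. The rule for named items took the 10 windows with the most liver summits (ties by the larger margin over uterus, then by chromosome and start), the 8 liver and 8 uterus members of highest fold enrichment and the 6 overlapping pairs of best summed rank. Gene names, motifs and sequences had been planned and are not analysed here, since the reference tables are on GRCm38 and coordinates were not converted. Software was scipy 1.17.1, pandas 2.3.3 and numpy 2.4.6 under Python 3.11.15, with figures drawn in matplotlib 3.10.9.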

Additional observations from a re-analysis of the deposited data

Results flagged for a closer look

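Liver and uterus peaks went in opposite directions under the same contrast, liver-tilted minus other windows, for 3 quantities. These differences between the tissues were not tested, as each has 1 library. The share of peaks overlapping a peak of the other tissue differed by -10.5 percentage points in the liver list and by 13.6 points in the uterus list. Both shares count the same overlaps over different totals. Densities of both lists in the windows were set by the rule and move with these shares. The median MACS score differed by 5.705 in liver and by -33.02 in uterus. The median tags per kb of peak differed by 0.173 in liver, where the medians were 88.8 and 88.7, and by -4.44 in uterus, where they were 87.3 and 91.7. In liver the intervals of these medians overlapped between the liver-tilted and the other windows, so no liver direction is shown. Against the liver-rich windows with more uterus summits the liver differences were -1.63 in score and -1.34 in tags per kb, the same sign as in uterus.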

How the results depend on the processing

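Of 100 recomputed values, 70 stayed within the interval of the reported value, or within 1.5 times a count, 30 moved beyond it and 0 reversed a called difference. The causes of the moves were not tested. A reversal could be called only for the uterus fold difference, with 13 alternatives, since the intervals of the other median differences from other windows included 0. The uterus tag difference, reported as 0.5, ran from -6 to 4. In all 14 alternatives the liver share stayed below, and in all 14 the uterus share above, that of other windows, and the uterus fold difference stayed below 0 in all 13. Each alternative for the shares again chose windows by liver and uterus counts or kept the same windows. The directions of the shares were therefore partly set by the rule, and the alternatives were not independent of each other.

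The number of windows was 202 with 0.5 Mb windows, 26 with 2 Mb windows and 10 or more liver summits, 71 with 8 or more liver summits, 58 with peaks of score 200 or more, 20 with liver at least 2 times uterus, and 488 with lists of equal length. With liver at least 2 times uterus, the shares were 10.4% in liver and 26.8% in uterus, the differences in median tags were -2 in liver and -6 in uterus, the uterus fold difference was -2.73, the share of liver summits within 10 kb of another was 57.7%, and 0 windows were adjacent. With peaks of score 200 or more, the liver fold difference was -0.39, the uterus tag difference was 4, the share within 10 kb was 44.5%, and 4 windows were adjacent. At a fold enrichment of at least 10, the shares were 11.4% and 15.8%, and the uterus fold difference was -0.96, with an interval of -1.81 to 0.24 that includes 0. With lists of equal length, the shares were 6.26% and 15.2%, the liver tag difference was 5 and the uterus fold difference was -1.415 (interval -2.385 to -0.645). With summits within 200 bp as the definition of shared, the shares were 12.3% and 16.3%. With up to 1000 bp between peaks the liver share was 17.7%, and with 0.5 Mb windows the uterus share was 23.4%. Against liver-rich windows with more uterus summits, the uterus differences were -1.06 in fold enrichment and -2.5 in tags.

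Alternatives for summit distance, grouping and adjacency were added after seeing the data. No paired analysis was possible because each tissue has 1 library. A site below the cutoff in a library counts as not bound there, so the tilt depends on how many peaks each library yielded.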
